A study of Neotoma stephensi and Rattus norvegicus with 6 samples.

Results

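The genes described here encode the enzymes that make, modify and break down ceramides and very-long-chain fatty acids, the lipids that seal keratinized epithelium against water. They were taken by gene symbol from a list of 42 genes chosen for what their products do, with earlier results of these data known. Of these, 40 were found among the 15481 genes of the count files, and all 40 were among the 12603 genes abundant enough to be tested, which required at least 1 CPM (counts scaled to a common library size) in at least 3 animals. Elovl3 and Sptlc3 were not analysed here.

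Tissue from the fornix ventricularis, the nonglandular foregut part of the stomach, was compared between 3 Stephens' woodrats (Neotoma stephensi) and 3 Sprague Dawley lab rats (Rattus norvegicus) by sequencing of polyA RNA, with 1 library for each animal. All animals were female, and the labels call every one of them virgin, whereas the study's methods state this for the lab rats alone. Ages were not given in the sources used here. The woodrats were trapped in the wild and fed juniper foliage until the day after they reached the laboratory, and the lab rats were purchased and kept for months on standard chow, so species, diet and captivity cannot be told apart. The comparison addresses how foregut transcripts of a herbivore that ferments food with dense microbes in this chamber differ from those of an omnivore that does not. Reads of both species were assigned to mouse coding transcripts, and how far the sequence distance to mouse changed the counts of the genes described here was not tested from these files.

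Ceramides are built from a long-chain base, made from serine and palmitoyl-CoA by serine palmitoyltransferase, and a fatty acid that ceramide synthases attach to it. Fatty acids reach very long chains in an elongation cycle, of which the ELOVL elongases take the first step and set the chain length. In the skin, keratinocytes attach linoleic acid to the end of the longest chains, oxidize it with lipoxygenases, carry the lipids as glucosylceramides and sphingomyelins, and convert them back to ceramides outside the cell. Loss of several of these enzymes causes ichthyosis, a defect of the skin barrier. The foregut of both rodents is lined by keratinized squamous epithelium.

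The libraries held between 5439642 and 7932637 counted reads, so that 3 reads of a gene corresponded to between 0.355 and 0.586 CPM after TMM normalization, the scale on which all levels are given below. Summed over each list, transcripts of general epithelial and of suprabasal squamous genes formed a smaller part of the woodrat libraries, and those of basal squamous genes did not. The median log2 fold change of woodrat over lab rat was -0.99, -0.61 and 0.23 over these 3 lists. Single genes weighed heavily in the squamous sums, with highest single-gene levels of 38380 CPM in the suprabasal and 8678 CPM in the basal list. Over 11 general epithelial genes (Cdh1, Esrp1 and others, 1 of them past the threshold, higher in lab rats) the summed level was 398.8, 978.1 and 1604 CPM in woodrats 1, 2 and 3 and 1991, 1878 and 2138 CPM in lab rats 1, 2 and 3. Over 14 genes of suprabasal squamous cells, in which barrier lipids are made, it ran from 24146 to 70960 CPM in woodrats and from 84861 to 112819 CPM in lab rats, with 2 genes past the threshold in lab rats and 1 in woodrats. Over 8 basal squamous genes the sums overlapped, at 5330 to 11363 CPM in woodrats and 4963 to 7329 CPM in lab rats, and 1 gene was past the threshold in woodrats. Smooth muscle genes went the other way, with 42043 to 128648 CPM over 10 genes in woodrats and 11404 to 20588 CPM in lab rats, and 4 of the 10 were past the threshold in woodrats. Glandular stomach genes summed to 13.1 CPM or less in every animal, with 1 of 2 tested genes past the threshold in woodrats. Pgc, Muc5ac, Muc6, Tff2, Gkn1 and Gkn2 had no reads in the lab rats, while each had reads in woodrats, as did every gene counted. Leukocyte genes summed to 9.96 to 23.7 CPM in woodrats and 55.1 to 106.4 CPM in lab rats, with 5 of 6 tested genes past the threshold in lab rats, and sebocyte genes summed to 28.6 CPM or less in woodrats and 37.1 to 73.6 CPM in lab rats with none of 3 tested genes past it. Adipocyte genes summed to 16.4 to 26.2 CPM in woodrats and 28.8 to 76.9 CPM in lab rats, with none of 2 tested genes past it, and fibroblast and endothelial genes summed to 1117 to 2564 and 2073 to 2633 CPM, with 1 of 10 past it in lab rats. Fabp4 is on both the sebocyte and the adipocyte list, and the highest single-gene level in each list was 70.9 CPM. The sebocyte and adipocyte sums are therefore not separate readings. In tissue samples of this kind, fewer cells of a type and less RNA per cell cannot be told apart, and the part of these marker differences in the results was not tested beyond the scalings given below.

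**Figure D1:**
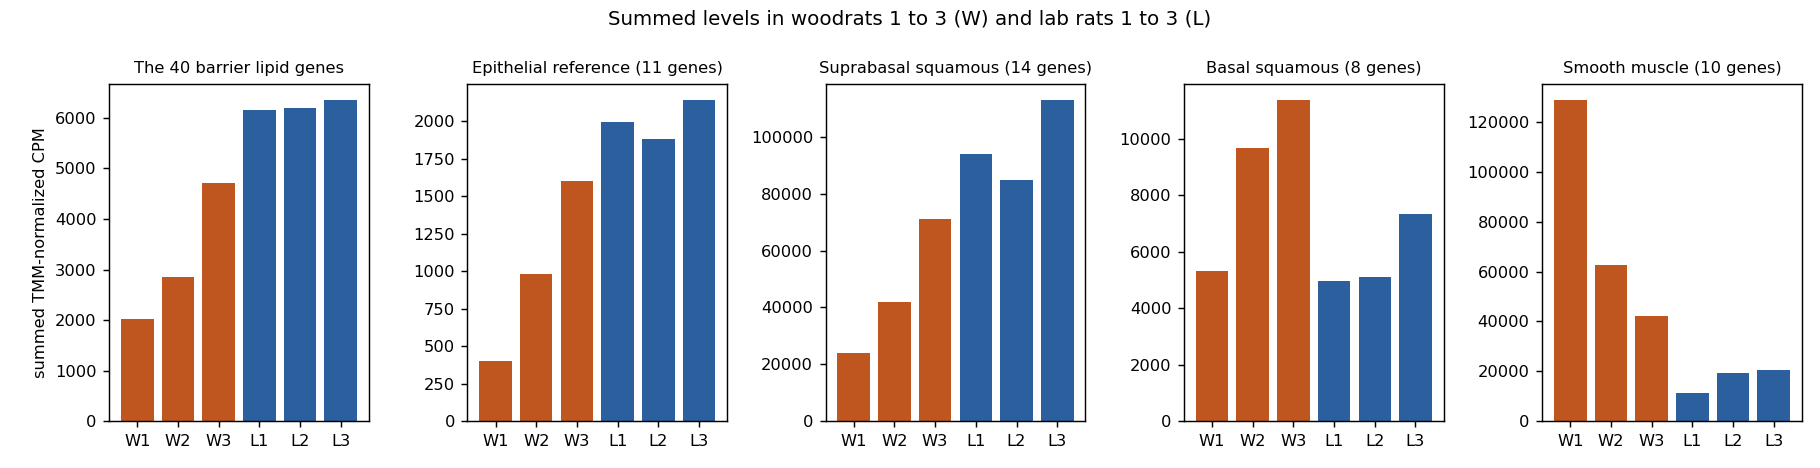
Summed TMM-normalized CPM of the 40 barrier lipid genes and of 4 marker lists, 1 bar for each animal (W, woodrats, orange; L, lab rats, blue), each panel with its own axis from 0. The barrier lipid sum is 2026, 2846 and 4713 CPM in woodrats 1 to 3 and 6157, 6186 and 6348 CPM in lab rats 1 to 3, and across the woodrats it follows the order of the epithelial sums and the reverse of the smooth muscle sum.

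The barrier lipid genes were, on balance, less abundant in woodrats. Their summed level was 2026, 2846 and 4713 CPM in the 3 woodrats against 6157, 6186 and 6348 CPM in the lab rats, without overlap. Elovl1 alone made up 184, 255 and 520 CPM of the woodrat sums and 1109, 1338 and 1270 CPM of the lab rat sums. The median log2 fold change of woodrat over lab rat was -0.73 over the 40 genes and 0.03 over all 12603 genes tested, and 31 of the 40 values were negative. By edgeR's quasi-likelihood test with Benjamini-Hochberg adjustment over all genes tested, 11 of the 40 genes (27.5%) differed between species at a false discovery rate (FDR) below 0.01, compared with 20.0% of all genes tested. Of the 11, 10 (Fa2h, Slc27a6, Acer2, Degs2, Smpd1, Hsd17b12, Elovl1, Sptlc1, Degs1 and Slc27a1) were higher in lab rats, which is 25.0% of the 40 genes against a background of 9.71%. Of these, Acer2 and Slc27a6 reached 1 CPM in no woodrat and Fa2h in 1, so they were tested only through the lab rats. Only Cers4 was called higher in woodrats, where the background was 10.3%. The sums of the 29 genes not called overlapped, at 1598, 2277 and 3869 CPM in woodrats and 3227, 3240 and 3586 CPM in lab rats.

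Counted without a test, the values of the 2 species did not overlap for 17 genes that were higher in lab rats, with 27.4% of all tested genes doing the same, and for 4 genes that were higher in woodrats (Cers4, Alox12b, Sgms1 and Sgms2), with a background of 28.8%. The remaining 19 genes overlapped. Scaling to the epithelial reference genes instead of by TMM moved the median log2 fold change of all genes to 1.46. Without overlap, 8 of the 40 genes were then higher in lab rats (background 5.69%) and 12 higher in woodrats (background 44.8%). Under both scalings the share of these genes was above its background toward lab rats and below its background toward woodrats. The woodrats also differed more among themselves than the lab rats did. The median coefficient of variation of the 40 genes was 51.5% over woodrats and 26.0% over lab rats, whereas over all tested genes it was 26.3% and 26.6%. Woodrat 1 had the lowest woodrat value for 34 of the 40 genes (85.0%, compared with 39.2% of all genes) and woodrat 3 the highest for 30 (75.0%, compared with 37.9%), in the order of the epithelial sums given above. For 6 genes, Elovl4, Elovl6, Elovl7, Cers3, Psap and Slc27a4, woodrats 1 and 2 lay below every lab rat and woodrat 3 did not, a pattern held by 15.0% of these genes and 5.59% of all tested genes.

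**Figure D2:**
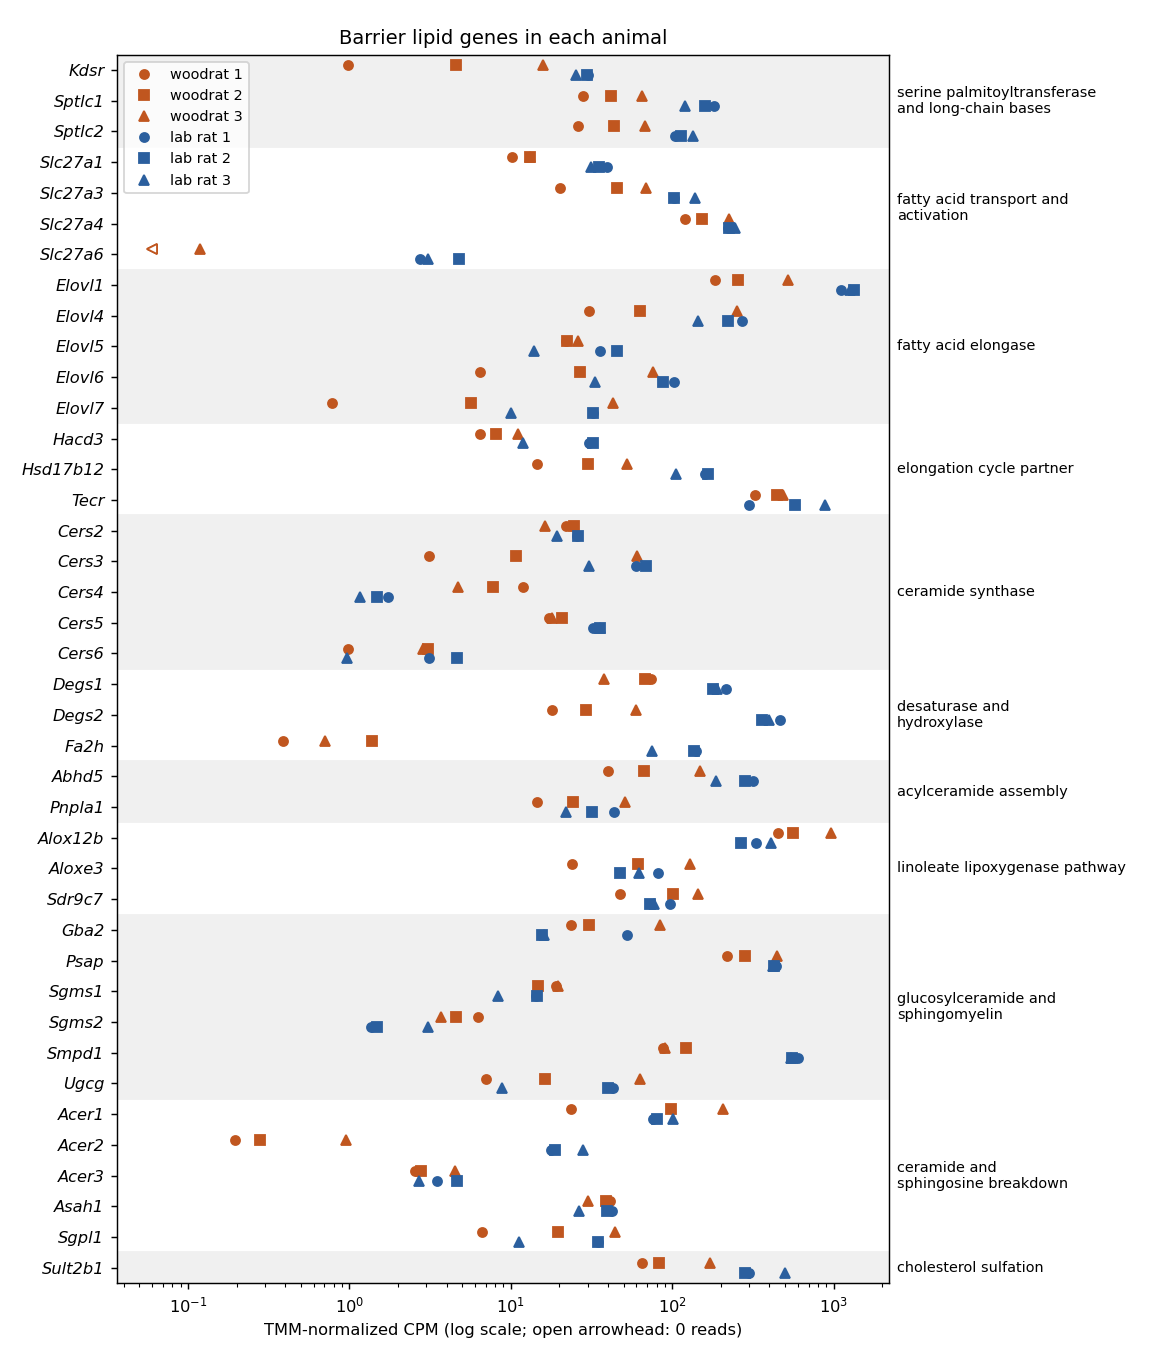
TMM-normalized CPM (log scale) of each of the 40 genes in each animal, orange for woodrats and blue for lab rats, with the shape giving the replicate number, an open arrowhead standing for 0 reads and the genes grouped by role. Fa2h, Acer2 and Slc27a6 show the widest separation, and woodrat 1 is the lowest woodrat for 34 genes and woodrat 3 the highest for 30.

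The size of these differences depended on how the libraries were scaled. When the libraries were scaled to the epithelial reference genes instead of by TMM, the median log2 fold change of all genes moved to 1.46 and that of the 40 genes to 0.24, so that the median of the lipid genes lay below the general shift. Under that scaling Acer2, Fa2h and Slc27a6 were called higher in lab rats (background 1.85%) and Cers4 and Sgms2 higher in woodrats (background 20.2%). A scaling to the basal squamous genes moved the median of all genes to 0.28 and that of the 40 genes to -0.92, and called Acer2, Degs2, Fa2h and Slc27a6 higher in lab rats (background 4.48%) and Cers4 higher in woodrats (background 6.94%). The common biological coefficient of variation was 34.0% with TMM, 61.1% with the epithelial reference and 57.0% with the basal genes. The 10 genes called higher in lab rats had negative log2 fold changes under all of these scalings, down to -0.04 for Degs1 with the epithelial reference.

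**Figure D3:**
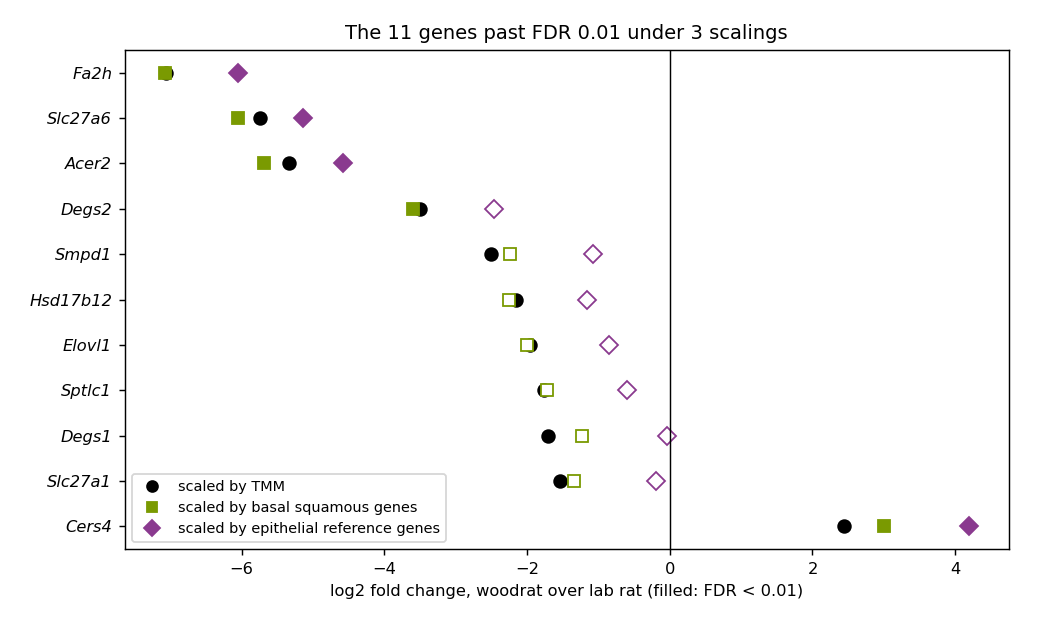
The log2 fold change, woodrat over lab rat, of the 11 genes past an FDR of 0.01, with the libraries scaled by TMM (black circles), by basal squamous genes (green squares) or by epithelial reference genes (purple diamonds), where filled symbols are past the threshold under that scaling. Fa2h, Slc27a6, Acer2 and Cers4 are filled under all 3, and Degs2 is open only with the epithelial reference.

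Sptlc1 and Sptlc2 encode the core of serine palmitoyltransferase, the enzyme that commits serine to sphingolipids. Sptlc1 stood at 28.1, 41.6 and 65.2 CPM in woodrats and 181, 159 and 121 CPM in lab rats. The groups did not overlap, and the level was 3.41-fold higher in lab rats (log2 fold change -1.77 ± 0.34, FDR 0.0051 by edgeR's quasi-likelihood test). The call was lost without woodrat 2 or without any of the lab rats, with an FDR of up to 0.0235. With the epithelial reference scaling the log2 fold change was -0.60 (FDR 0.534) and the species overlapped. Sptlc2, the catalytic partner, stood at 26.2, 43.6 and 67.4 CPM in woodrats and 105, 113 and 134 CPM in lab rats, again without overlap, and missed the threshold (log2 fold change -1.35 ± 0.34, FDR 0.0155). Kdsr, which reduces the ketosphinganine that this enzyme releases, stood at 0.977, 4.58 and 15.8 CPM in woodrats and 30.2, 29.6 and 25.4 CPM in lab rats. Its 3 woodrats were the most uneven of this group and all lay below the lab rats (log2 fold change -1.96 ± 0.71, FDR 0.0565).

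The Slc27 genes encode fatty acid transport proteins, which bring fatty acids into the cell and join them to coenzyme A. Slc27a6 (ENSMUSG00000024600.8) had no reads in woodrats 1 and 2, which allows up to 0.586 and 0.416 CPM, and a single read in woodrat 3 (0.118 CPM). The lab rats had 2.73, 4.797 and 3.08 CPM, from 22, 29 and 16 reads. Pooled over each species, 1 read in woodrats and 67 in lab rats gave a depth-adjusted ratio of 72.1, with a 95% counting interval from 12.5 to 2890 that leaves out the spread between animals. The gene was tested only because the lab rats exceeded 1 CPM, and it was called in every fit that left out an animal (log2 fold change -5.74 ± 0.77, FDR 0.0013). Slc27a1 stood at 10.2, 13.2 and 13.2 CPM in woodrats and 39.3, 35.4 and 31.6 CPM in lab rats, a narrow spread within each species. It was 2.91-fold higher in lab rats (log2 fold change -1.54 ± 0.26, FDR 0.0029), and the call was lost without woodrat 2, lab rat 1 or lab rat 2. With the epithelial reference scaling the log2 fold change of Slc27a1 was -0.19 (FDR 0.850) and the species overlapped. Slc27a3 showed no overlap either, with 20.3 to 68.5 CPM in woodrats and 102 to 139 CPM in lab rats, but an FDR of 0.0295. Slc27a4, the family member whose loss impairs the skin barrier, stood at 120, 153 and 224 CPM in woodrats and 223, 225 and 245 CPM in lab rats, so that woodrat 3 reached the lab rats (log2 fold change -0.48 ± 0.28, FDR 0.207).

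Of the 5 elongases, Elovl1 alone passed the threshold. ELOVL1 extends saturated and monounsaturated fatty acids to the chain lengths found in most membrane ceramides. Elovl1 stood at 184, 255 and 520 CPM in woodrats and 1109, 1338 and 1270 CPM in lab rats. All lab rats lay above all woodrats, by 3.87-fold on average (log2 fold change -1.95 ± 0.42, FDR 0.0078 by edgeR's quasi-likelihood test). The call was kept when woodrat 3 was left out and lost, with an FDR of up to 0.0378, when any other animal was. The log2 fold change ran from -2.49 to -1.68 over these fits. With the epithelial reference scaling it was -0.85 (FDR 0.405).

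Elovl4, whose product makes the ultra-long chains of acylceramides, stood at 30.7, 63.4 and 253 CPM in woodrats and 272, 223 and 144 CPM in lab rats. The groups overlapped because woodrat 3 exceeded 2 of the lab rats (log2 fold change -0.88 ± 0.67, FDR 0.324). Elovl6 and Elovl7, for the first elongation steps of saturated chains and for saturated very-long chains, overlapped too, with woodrat 3 above lab rat 3 alone for Elovl6 and above every lab rat for Elovl7. Elovl6 stood at 6.45, 26.6 and 76.2 CPM in woodrats and 103, 87.8 and 33.3 CPM in lab rats (FDR 0.296), and Elovl7 at 0.781, 5.69 and 42.9 CPM in woodrats and 32.5, 32.1 and 10.02 CPM in lab rats (FDR 0.676). Elovl5, an elongase of polyunsaturated fatty acids, was the steadiest of the 40 genes among woodrats, with 21.9, 22.2 and 25.9 CPM against 35.6, 45.5 and 13.9 CPM in lab rats (log2 fold change -0.44 ± 0.40, FDR 0.406, and 0.97 with the epithelial reference scaling).

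The elongation cycle is completed by a ketoacyl reductase, a dehydratase and an enoyl reductase. Hsd17b12, the reductase of the second step, stood at 14.4, 30.0 and 52.2 CPM in woodrats and 160, 166 and 106 CPM in lab rats. It was 4.44-fold higher in lab rats without overlap (log2 fold change -2.15 ± 0.44, FDR 0.0066), and the call was lost without woodrat 2 or any of the lab rats. With the epithelial reference scaling the log2 fold change was -1.16 (FDR 0.224). Hacd3, a dehydratase, stood at 6.45, 8.05 and 11.02 CPM in woodrats and 30.4, 32.2 and 11.9 CPM in lab rats, with lab rat 3 close to the woodrats (log2 fold change -1.54 ± 0.42, FDR 0.0205). It came under an FDR of 0.01 when lab rat 3 was left out. Tecr, the enoyl reductase of the last step, stood at 327, 443 and 486 CPM in woodrats and 297, 573 and 887 CPM in lab rats, and the groups overlapped (log2 fold change -0.48 ± 0.41, FDR 0.368).

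Ceramide synthases attach fatty acids of different lengths, and here 1 of 5 was called, and it was the only one of the 40 genes called higher in woodrats. Cers4, which uses long and very-long acyl chains, stood at 11.9, 7.77 and 4.74 CPM in woodrats, from 61, 56 and 40 reads, and at 1.74, 1.49 and 1.16 CPM in lab rats, from 14, 9 and 6 reads. The lowest woodrat lay above the highest lab rat, and the fitted level was 5.41-fold higher in woodrats (log2 fold change 2.43 ± 0.46, FDR 0.0046 by edgeR's quasi-likelihood test). The call was lost when any animal except woodrat 3 was left out, with an FDR of up to 0.0203. It held under the epithelial and the basal scaling (log2 fold changes 4.19 and 3.01). These scalings themselves moved the median of all genes toward woodrats, to 1.46 and 0.28. Among woodrats Cers4 ran against the epithelial sums and with the smooth muscle sum, being highest in woodrat 1 and lowest in woodrat 3, and the part of cell composition in this difference was not tested. Cers3, the synthase for ultra-long chains and a known ichthyosis gene, had the reverse order, with 3.12, 10.8 and 60.3 CPM in woodrats and 60.1, 68.6 and 30.6 CPM in lab rats. Woodrat 3 lay within the lab rat range and the other woodrats below it (log2 fold change -1.09 ± 0.84, FDR 0.328).

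Cers5, a synthase for shorter chains, was the most even of the family, with 17.2, 20.8 and 17.9 CPM in woodrats and 32.5, 35.6 and 35.8 CPM in lab rats. These did not overlap, and the difference missed the threshold (log2 fold change -0.89 ± 0.23, FDR 0.0171). Cers2, the most widely expressed synthase for very-long chains, overlapped at 16.2 to 24.6 CPM in woodrats and 19.4 to 26.0 CPM in lab rats (log2 fold change -0.18 ± 0.28, FDR 0.624), as did Cers6 at 0.977 to 3.05 and 0.963 to 4.63 CPM (log2 fold change -0.32 ± 0.61, FDR 0.705). The log2 fold changes of Cers2, Cers5 and Cers6 turned positive with the epithelial reference scaling.

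The enzymes that desaturate or hydroxylate the building blocks had the lowest median log2 fold change of all roles, -3.50. All 3 genes of this group, Fa2h, Degs2 and Degs1, were called higher in lab rats, and their summed level was 92.2, 99.1 and 97.7 CPM in woodrats and 819, 673 and 661 CPM in lab rats. Fa2h (ENSMUSG00000033579.15) encodes the hydroxylase that makes the alpha-hydroxy fatty acids of skin and myelin ceramides. It stood at 0.391, 1.39 and 0.711 CPM in woodrats, from 2, 10 and 6 reads, and at 139.5, 136 and 75.3 CPM in lab rats, from 1124, 820 and 391 reads. The lowest lab rat was far above the highest woodrat, and since only 1 woodrat reached 1 CPM the gene was tested through the lab rats. The pooled reads, 18 against 2335, gave a depth-adjusted ratio of 139.6 with a 95% counting interval from 88.1 to 236. This interval leaves out the spread between animals, which the test includes (log2 fold change -7.06 ± 0.48, FDR 0.0001 by edgeR's quasi-likelihood test). The log2 fold change was -6.05 with the epithelial reference scaling.

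Degs2 (ENSMUSG00000021263.9) encodes a dihydroceramide desaturase that also hydroxylates the long-chain base to phytoceramide, the form that is plentiful in skin and gut. It stood at 18.0, 29.4 and 59.5 CPM in woodrats and 463, 359 and 395 CPM in lab rats. The difference was 11.3-fold without overlap (log2 fold change -3.50 ± 0.45, FDR 0.0011), and was called in every fit that left out an animal. With the epithelial reference scaling it became -2.46 (FDR 0.0141). Degs1, the general dihydroceramide desaturase, stood at 73.8, 68.3 and 37.5 CPM in woodrats and 216, 179 and 190 CPM in lab rats, without overlap. It was 3.26-fold higher in lab rats (log2 fold change -1.70 ± 0.30, FDR 0.0036). Unlike Degs2 it was lowest in woodrat 3, the call was lost without woodrat 2 or any of the lab rats, and with the epithelial reference scaling the species overlapped.

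Because an animal's reads within an enzyme family are scaled alike, the share of a family's reads does not depend on the scaling. Shares are of reads and are not corrected for transcript length, so they compare animals and not the amounts of the isozymes. Degs2 took 19.6%, 30.1% and 61.3% of the reads of both desaturases in woodrats and 68.2%, 66.8% and 67.5% in lab rats. The woodrat mean was 37.0% ± 21.7 and the lab rat mean 67.5% ± 0.722 (SD, n = 3 each; exact permutation p = 0.1, two-sided, the smallest this design allows). Cers4 took 21.6%, 11.6% and 4.65% of the ceramide synthase reads in woodrats and 1.41%, 1.09% and 1.31% in lab rats (exact p = 0.1). Cers3 took 5.67%, 16.1% and 59.1% in woodrats and 48.8%, 50.4% and 34.8% in lab rats, so that woodrat 3 had the highest share of all animals and woodrat 1 the lowest (exact p = 0.4). Elovl4 took 12.6%, 17.0% and 27.6% of the elongase reads in woodrats and 17.5%, 12.9% and 9.77% in lab rats, with overlap (exact p = 0.5). Elovl5 took 8.97%, 5.95% and 2.83% in woodrats and 2.30%, 2.64% and 0.943% in lab rats, just without overlap (exact p = 0.1). Over the 11 shares compared, the lowest Benjamini-Hochberg adjusted p of these exact tests was 0.367.

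**Figure D4:**
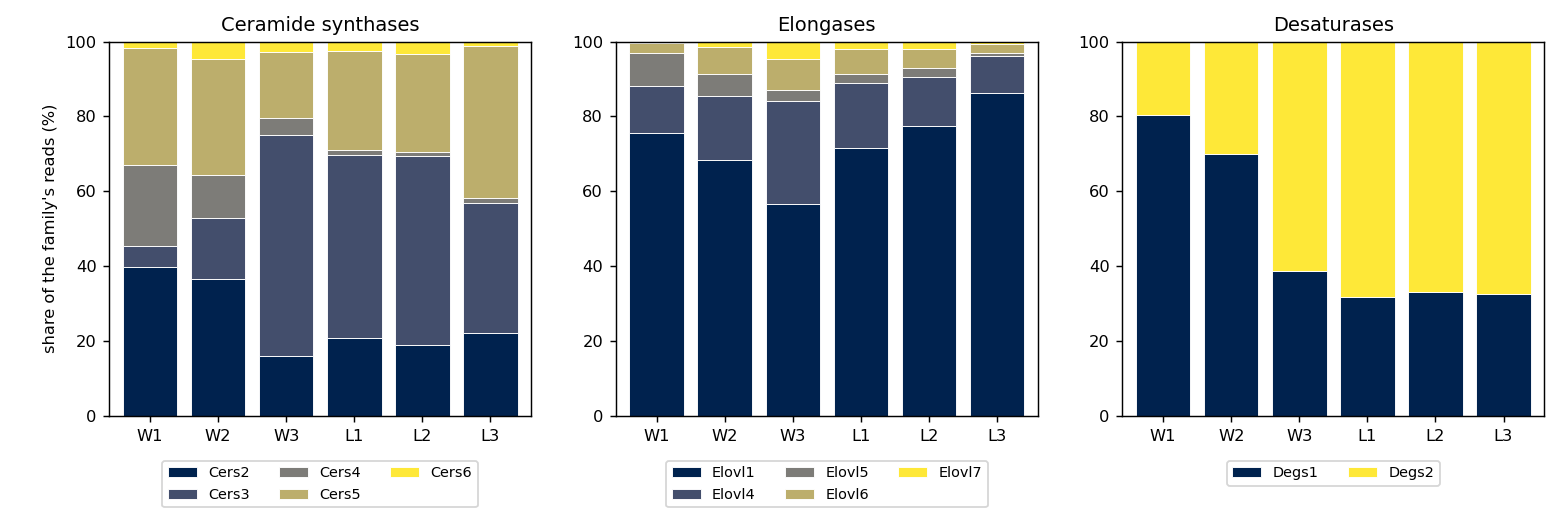
Share of reads (%) that each gene takes of the reads of its enzyme family, as stacked bars for woodrats 1 to 3 (W) and lab rats 1 to 3 (L). The Degs2 share is 66.8% to 68.2% in every lab rat and 19.6% to 61.3% in the woodrats, and the Cers3 share of woodrat 3, 59.1%, is unlike that of the other woodrats.

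Acylceramides, the linoleate-bearing ceramides of the barrier, are assembled by PNPLA1 with ABHD5 as its helper and are then oxidized by lipoxygenases. Abhd5 stood at 40.2, 67.3 and 149 CPM in woodrats and 318, 282 and 187 CPM in lab rats. The groups did not overlap, and the difference missed the threshold (log2 fold change -1.61 ± 0.47, FDR 0.0251). Pnpla1 stood at 14.4, 24.1 and 51.2 CPM in woodrats and 43.8, 31.9 and 22.0 CPM in lab rats, with woodrat 3 above every lab rat (log2 fold change -0.12 ± 0.46, FDR 0.858).

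The genes of the linoleate lipoxygenase pathway had positive log2 fold changes with TMM, and none was called. Alox12b, which encodes the lipoxygenase that first oxidizes the linoleate, stood at 455, 558 and 956 CPM in woodrats and 332, 268 and 410 CPM in lab rats. Every woodrat was above every lab rat, by 1.95-fold on average, but the difference missed the threshold (log2 fold change 0.96 ± 0.35, FDR 0.0581). It was 2.19 with the epithelial reference scaling (FDR 0.0353). Aloxe3, which converts the product, stood at 23.8, 61.4 and 130 CPM in woodrats and 82.03, 47.3 and 62.0 CPM in lab rats. Sdr9c7, the dehydrogenase of the next step, stood at 47.3, 100.5 and 143 CPM in woodrats and 96.7, 72.8 and 77.0 CPM in lab rats. In both, woodrat 1 was the lowest and woodrat 3 the highest of all animals (log2 fold changes 0.17 ± 0.53 and 0.24 ± 0.38, FDR 0.819 and 0.638). The sign of Aloxe3 turned to -0.06 with the basal scaling.

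Among the genes that store ceramide as glucosylceramide or sphingomyelin and release it again, Smpd1 was called. Smpd1 (ENSMUSG00000037049.8), the acid sphingomyelinase that frees ceramide from sphingomyelin, stood at 87.3, 122 and 90.4 CPM in woodrats and 600, 550 and 542 CPM in lab rats. Both species were tight and far apart, with 5.65-fold more in lab rats (log2 fold change -2.50 ± 0.27, FDR 0.0007 by edgeR's quasi-likelihood test). Woodrat 2 was the highest woodrat, the call was kept whichever animal was left out, and with the epithelial reference scaling the log2 fold change was -1.08 (FDR 0.277).

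The sphingomyelin synthases, which use up ceramide, had positive log2 fold changes and were not called with TMM. Sgms2 stood at 6.25, 4.58 and 3.67 CPM in woodrats and 1.36, 1.49 and 3.08 CPM in lab rats, from 31 to 33 reads in woodrats and 9 to 16 in lab rats, without overlap (log2 fold change 1.30 ± 0.46, FDR 0.0512). With the epithelial reference scaling it was called at 2.89 (FDR 0.0063). Sgms1 stood at 19.1, 14.7 and 19.7 CPM in woodrats and 14.3, 14.6 and 8.28 CPM in lab rats, where woodrat 2 and lab rat 2 nearly met (log2 fold change 0.52 ± 0.31, FDR 0.215).

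Ugcg, the glucosylceramide synthase, varied widely among animals of both species. It stood at 7.03, 16.4 and 63.4 CPM in woodrats and 43.1, 39.9 and 8.86 CPM in lab rats (log2 fold change -0.08 ± 0.78, FDR 0.947). Gba2, a glucosylceramidase outside the lysosome, stood at 23.4, 30.4 and 83.9 CPM in woodrats and 52.4, 15.7 and 15.99 CPM in lab rats, with lab rat 1 apart from the other lab rats (log2 fold change 0.71 ± 0.60, FDR 0.376). Psap, the precursor of the saposins that present these lipids to lysosomal enzymes, stood at 219, 282 and 447 CPM in woodrats and 438, 429 and 421 CPM in lab rats (log2 fold change -0.44 ± 0.31, FDR 0.287).

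Ceramidases split ceramide into a fatty acid and sphingosine, and 1 of the 4 on the list was called. Acer2 (ENSMUSG00000038007.13), a ceramidase of the Golgi, stood at 0.195, 0.278 and 0.948 CPM in woodrats, from 1, 2 and 8 reads, and at 17.8, 18.7 and 27.9 CPM in lab rats, from 143, 113 and 145 reads. No woodrat came near the lab rats. The pooled reads gave a depth-adjusted ratio of 39.2 with a 95% counting interval from 21.7 to 79.2, which leaves out the spread between animals. Like Slc27a6 the gene was tested only through the lab rats (log2 fold change -5.33 ± 0.53, FDR 0.0005 by edgeR's quasi-likelihood test). The call was kept in every fit that left out an animal and under both epithelial scalings.

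Acer1, the ceramidase of differentiated keratinocytes, showed nothing of this kind. It stood at 23.4, 98.5 and 205 CPM in woodrats and 75.7, 80.5 and 101 CPM in lab rats, with the woodrats on both sides of the lab rats (log2 fold change 0.35 ± 0.61, FDR 0.676, and -0.02 with the basal scaling). Acer3 overlapped at 2.54 to 4.50 CPM in woodrats and 2.70 to 4.63 CPM in lab rats (FDR 0.828). Asah1, the lysosomal acid ceramidase, had the log2 fold change nearest 0 of the 40 genes, with 41.2, 39.1 and 30.0 CPM in woodrats and 42.3, 39.5 and 26.4 CPM in lab rats (0.02 ± 0.27, FDR 0.950). Sgpl1, the lyase that ends sphingolipid breakdown, stood at 6.64, 19.6 and 44.0 CPM in woodrats and 34.5, 34.9 and 11.2 CPM in lab rats (log2 fold change -0.19 ± 0.64, FDR 0.832).

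Sult2b1, which makes the cholesterol sulfate of cornified cells, came closest to the threshold without passing it. It stood at 65.0, 83.3 and 171 CPM in woodrats and 298, 281 and 500 CPM in lab rats, without overlap (log2 fold change -1.76 ± 0.42, FDR 0.0121). In all, 17 of the 40 genes (42.5%) were below an FDR of 0.05, compared with 39.9% of all genes tested. Among them were Sult2b1, Sptlc2, Cers5, Hacd3, Abhd5 and Slc27a3, which were all higher in lab rats with TMM. Without woodrat 3, Sult2b1, Sptlc2, Abhd5, Slc27a3, Kdsr, Elovl4 and Cers3 came under an FDR of 0.01, all higher in lab rats, in a fit that called 20.8% of all genes in either direction. The sign of Cers5 alone among the 6 genes named first turned with the epithelial reference scaling.

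**Figure D5:**
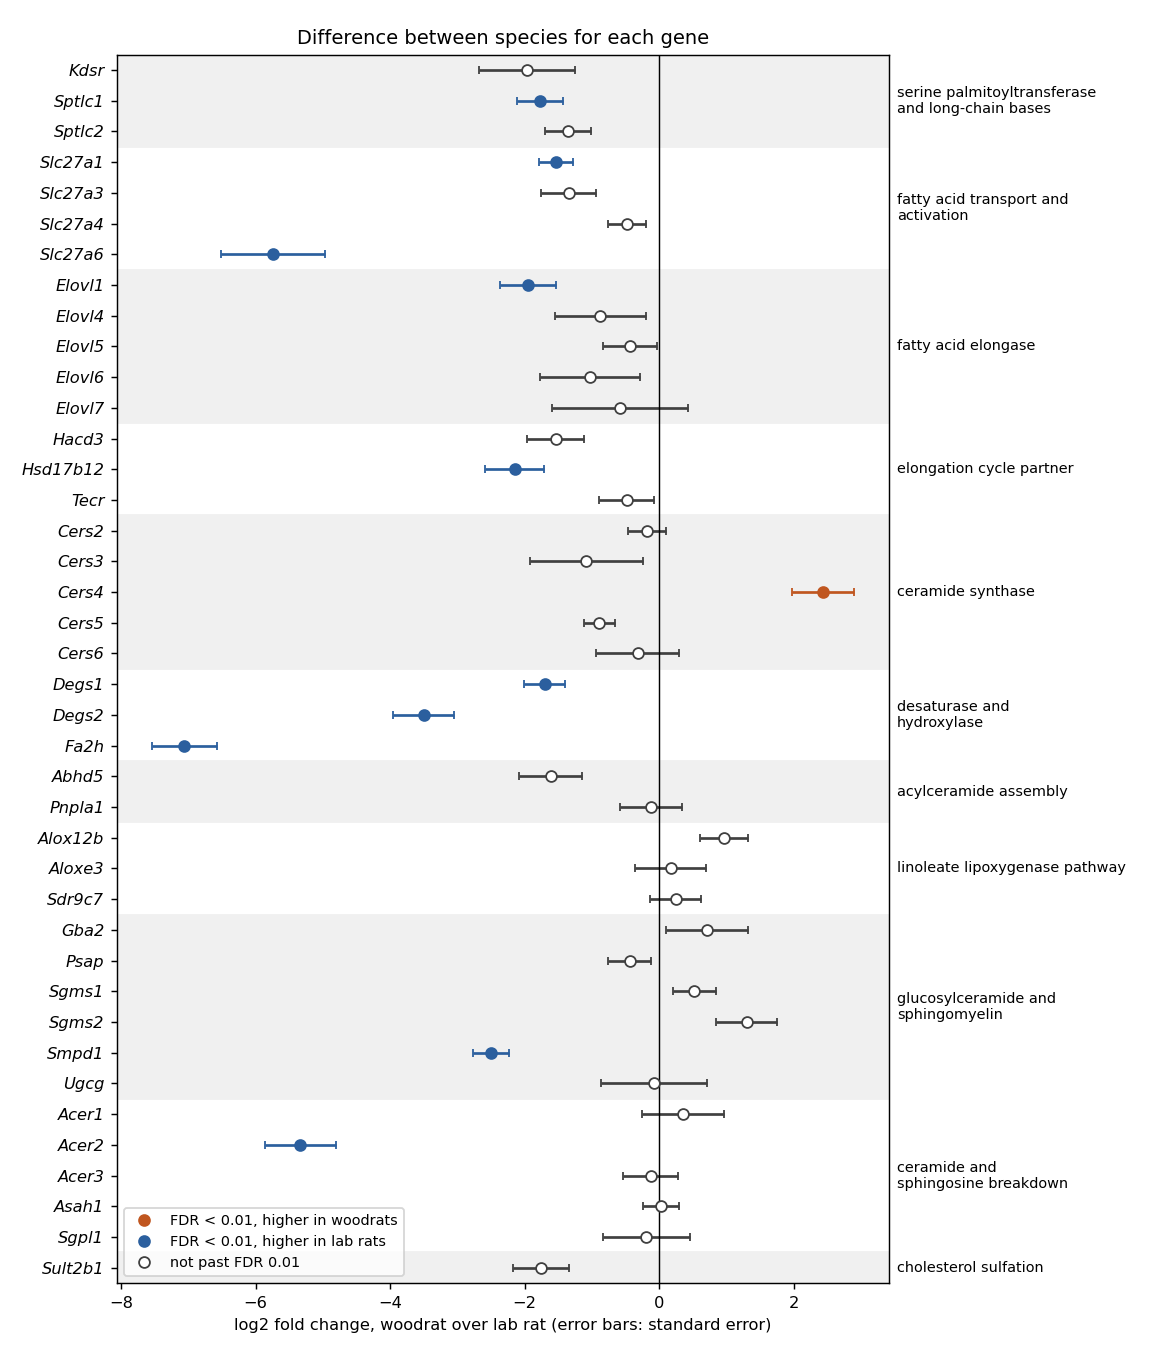
The log2 fold change of woodrat over lab rat for each of the 40 genes, grouped by role, with bars for the standard error of the edgeR quasi-likelihood fit on TMM-normalized counts (n = 3 animals of each species). Filled points are past an FDR of 0.01, with Cers4 to the right of 0 and Fa2h, Slc27a6, Acer2 and Degs2 farthest to the left at -7.06, -5.74, -5.33 and -3.50.

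A further 58 genes of sphingolipid and fatty acid metabolism were examined, of which 57 were in the files and 53 were tested. Of the 53, 13 were called (24.5%, compared with 20.0% of all genes tested), 10 of them higher in lab rats (18.9%, compared with 9.71%) and 3 higher in woodrats (5.66%, compared with 10.3%). The median log2 fold change of the 53 was -0.38. The largest differences toward lab rats with edgeR's quasi-likelihood test were in Lipn, a lipase of keratinocytes (-6.20 ± 0.51, FDR 0.0002), Asah2, the neutral ceramidase (-5.49 ± 0.61, FDR 0.0007), Acsbg1, an acyl-CoA synthetase for very-long-chain fatty acids (-4.63 ± 0.54, FDR 0.0008), and Hacd2, a second dehydratase of the elongation cycle (-3.42 ± 0.30, FDR 0.0003). Smpdl3a, a phosphodiesterase related to acid sphingomyelinase (-2.55 ± 0.51), and Slc27a2, another fatty acid transport protein (-2.49 ± 0.47), followed with FDR values of 0.0057 and 0.0046. Slc27a2 was tested only because the lab rats exceeded 1 CPM, which no woodrat did. Lipn and Asah2 reached 1 CPM in 2 woodrats each, so they too needed the lab rats to be tested. Lipn had 3, 20 and 15 reads in woodrats 1, 2 and 3.

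Acsbg1 stood at 9.38, 19.3 and 40.8 CPM in woodrats and 631, 592 and 512 CPM in lab rats, and Asah2 at 0.391, 2.50 and 4.86 CPM in woodrats and 139.7, 128 and 101 CPM in lab rats. Neither overlapped. The 3 genes called higher in woodrats were Ormdl1, a regulator of serine palmitoyltransferase (3.84 ± 0.85, FDR 0.0087), B4galt6, a lactosylceramide synthase (3.18 ± 0.47, FDR 0.0018), and Col4a3bp, the ceramide transfer protein that supplies sphingomyelin synthesis in the Golgi (2.47 ± 0.48, FDR 0.0053). Ormdl1 and B4galt6 were tested only through the woodrats, since no lab rat reached 1 CPM. Col4a3bp stood at 40.8, 50.8 and 28.4 CPM in woodrats and 10.2, 8.60 and 2.50 CPM in lab rats, without overlap.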

How the data were processed

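Foregut polyA RNA of 3 woodrats and 3 lab rats was measured. Stranded read pairs were trimmed (Trimmomatic), joined where they overlapped (FLASH) and aligned with cross_match to the coding transcripts of the mouse (GENCODE M7). The authors left out genes prone to multiple alignment and deposited raw counts of uniquely assigned, strand-correct reads for each mouse gene. Versions and transcript lengths are not given in the sources used here, so levels are not compared between genes. Every gene in the files had woodrat reads, while 809 had none in lab rats, so genes read in lab rats alone do not enter.

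Genes reaching 1 CPM in 3 or more animals were fitted with edgeR 4.0.16 in R 4.3.3 (TMM factors and the quasi-likelihood F-test used before version 4, species as the only term, Benjamini-Hochberg adjustment, FDR threshold 0.01). Standard errors are the size of the log2 fold change over the square root of F. Counting intervals are exact at 95% for reads pooled over each species and leave out the spread between animals. Replicates are separate animals, and no pair of one species agreed within sampling noise (chi-square per degree of freedom 9.01 to 101.5). The code was tested on simulated counts. Python 3.11.15, pandas 2.3.3 and scipy 1.17.1 served for the shares, and DESeq2 1.42.0 for alternatives. Alternatives covered filters, scalings, tests, thresholds, the replicate block and each animal left out. All genes of the list are named, and of the further pathway genes those past the threshold, at most 6 in each direction. The genes, marker lists and tests were chosen with earlier results of these data known. No sequences or positions are shown, since no reference was used here.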

Additional observations from a re-analysis of the deposited data

How the results depend on the processing

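The number of the 40 genes past the threshold depended on the animals and the scaling. It was 11 with TMM, 10 or 11 with the other filters, DESeq2 size factors or the edgeR 4 method, 8 with total counts only (14.4% of all genes called), 5 with the epithelial reference scaling (22.0%), 5 with glmTreat against a log2 fold change of 1 (6.61%), 18 with the DESeq2 test (31.1%) and 17 at an FDR of 0.05. Leaving out each animal gave 5 to 18 of these genes and 5 to 11 of the further pathway genes. The count was 18 without woodrat 3 (20.8% of all genes called), 9 without woodrat 1 (14.9%), 7 without lab rat 3 (10.4%) and 5 without woodrat 2, lab rat 1 or lab rat 2 (7.13%, 7.43% and 8.33%). Acer2, Degs2, Fa2h, Slc27a6 and Smpd1 were called in each of these 6 fits. After seeing the data, the basal squamous scaling (5 genes, with 11.4% of all genes called) and leaving out woodrat 1 and lab rat 3 together (10 genes, 13.5%) were added. The number of further pathway genes was 13 and lay between 8 and 18 elsewhere, apart from 6 without woodrat 2 or lab rat 1, 5 without lab rat 2, 5 with glmTreat and 6 with the block.

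With the replicate number as a block, 5 of the 40 genes and 6 of the further genes were called (5.68% of all genes), and Aloxe3 (-0.0692) and Acer1 (-0.0859) changed sign. The numbers did not pair the animals, since same-numbered animals correlated at -0.289, -0.0881 and -0.279 in their deviations and others at -0.0641 to 0.318.

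Signs turned only for genes not called with TMM. With the epithelial reference scaling the log2 fold changes were 0.97 for Elovl5, 1.34 for Cers2, 0.53 for Cers5, 0.67 for Cers6, 0.63 for Ugcg, 0.78 for Psap, 1.06 for Acer3, 0.90 for Pnpla1, 0.61 for Sgpl1, 0.78 for Slc27a4 and 0.83 for Tecr, where the median of all genes was 1.46. With the basal scaling they were -0.0634 for Aloxe3, 0.19 for Cers2 and -0.0191 for Acer1. Asah1 was -0.0525 with total counts only and -0.27 without woodrat 1 and lab rat 3, where Tecr was 0.0714. Leaving out each animal gave ranges of -0.58 to 0.58 for Aloxe3, -0.71 to 0.15 for Cers6, -1.38 to 0.38 for Ugcg, -0.065 to 1.54 for Gba2, -0.49 to 0.82 for Acer1, -0.44 to 0.0882 for Acer3, -0.16 to 0.16 for Asah1, -0.75 to 0.21 for Pnpla1, -1.02 to 0.24 for Sgpl1 and -0.15 to 0.57 for Sdr9c7. The cause was not tested. Degs2, Cers3 and Elovl4 shares kept their direction whichever animal was left out. A Sptlc3 share and shares per coding length were not run. At this depth, Slc27a6 in every woodrat, Acer2 in woodrats 1 and 2 and Fa2h in woodrat 1 had fewer than 3 reads.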
